A study of Arabidopsis thaliana with 8 samples.

Results

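A set of 5 genes of auxin homeostasis was examined in heat-shocked seedlings of Arabidopsis thaliana: the GH3 genes GH3.3 (AT2G23170), GH3.5 (AT4G27260, listed by the reference table as WES1), GH3.9 (AT2G47750) and GH3.17 (AT1G28130), and the Aux/IAA gene IAA29 (AT4G32280). They were chosen by name, each through the probe set that the platform annotation pairs with that gene alone, which gave 5 probe sets out of 22810 on the array and 5 genes out of 13356 that have such a probe set. All 5 probe sets carry the suffix _at, which in Affymetrix naming marks probes chosen to match a single transcript; the probe sequences were not used here. The samples were pools of about 100 seedlings aged 7 days in 4 groups of 2 biological replicates: til1-1 at 37 °C, til1-1 at 22 °C, wild type (Col-0) at 37 °C and wild type at 22 °C. The plants at 37 °C were collected directly after heat shock, and those at 22 °C were their controls. The mutation til1-1 affects TIL, which encodes a temperature-induced lipocalin; the kind of allele, the number of lines and the duration of heat shock are not stated in the labels.

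GH3 enzymes join auxin (indole-3-acetic acid, IAA) or other acidic hormones to amino acids. For auxin, this takes free hormone out of action or marks it for breakdown. Aux/IAA proteins sit at the other end of the pathway: they bind auxin response factors and repress their target genes until auxin, held by F-box receptors of the TIR1/AFB family, has them degraded. Several GH3 and Aux/IAA genes are themselves switched on by auxin within minutes, so they work as a brake on the signal and are widely read as reporters of it. In Arabidopsis seedlings IAA29 is also a target of the phytochrome-interacting factors that drive growth in shade and warmth.

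Values are array intensities as deposited, in arbitrary units, from 1 array per sample, and differences are on the log2 scale after adding 16 units, so that differences of dim probe sets are understated. Array medians were 154.8 to 160.35 units at 37 °C and 197.6 to 204.1 units at 22 °C. The TIL probe set read 5803.7 and 5341.8 units in the samples labelled til1-1 at 37 °C against 21245.7 and 20289.7 in wild type at 37 °C, but 3167.6 and 3047.8 in those labelled til1-1 at 22 °C against 3795.1 and 3132.3 in wild type at 22 °C. TIL thus separated the genotype labels after heat shock and did not do so at 22 °C, and the position of its probes with respect to the mutation is unknown here, so the wording "samples labelled til1-1" is kept below. Tissue markers were read beside the seedling label. Of 11 listed root markers 3, and of 12 listed markers of photosynthetic tissue 4, had a probe set of their own. None of these 7 was at 0 in any sample. Dim probe sets also read above 0, such as AT1G48660 at 1.5 to 10.8 units, so this does not test the label.

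With the arrays scaled as deposited, the GH3 genes that passed the test moved in opposite directions after heat shock. GH3.5 rose in both genotypes, GH3.3 rose in wild type, and GH3.17 fell in both genotypes, while GH3.9 and IAA29 did not pass the test in either. The changes that passed were 1.59-fold to 1.91-fold. Of the 5 genes, 2 passed in the samples labelled til1-1 and 3 in wild type, at an adjusted p under 0.05 over 17059 tested probe sets. The background was high: 44.3% of all tested probe sets passed in the samples labelled til1-1 and 43.7% in wild type, so the members' counts lie close to that background. Rises were rarer, at 12.7% of probe sets in the samples labelled til1-1 and 12.4% in wild type, and falls were commoner, at 31.6% in the samples labelled til1-1 and 31.3% in wild type.

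**Figure D1:**
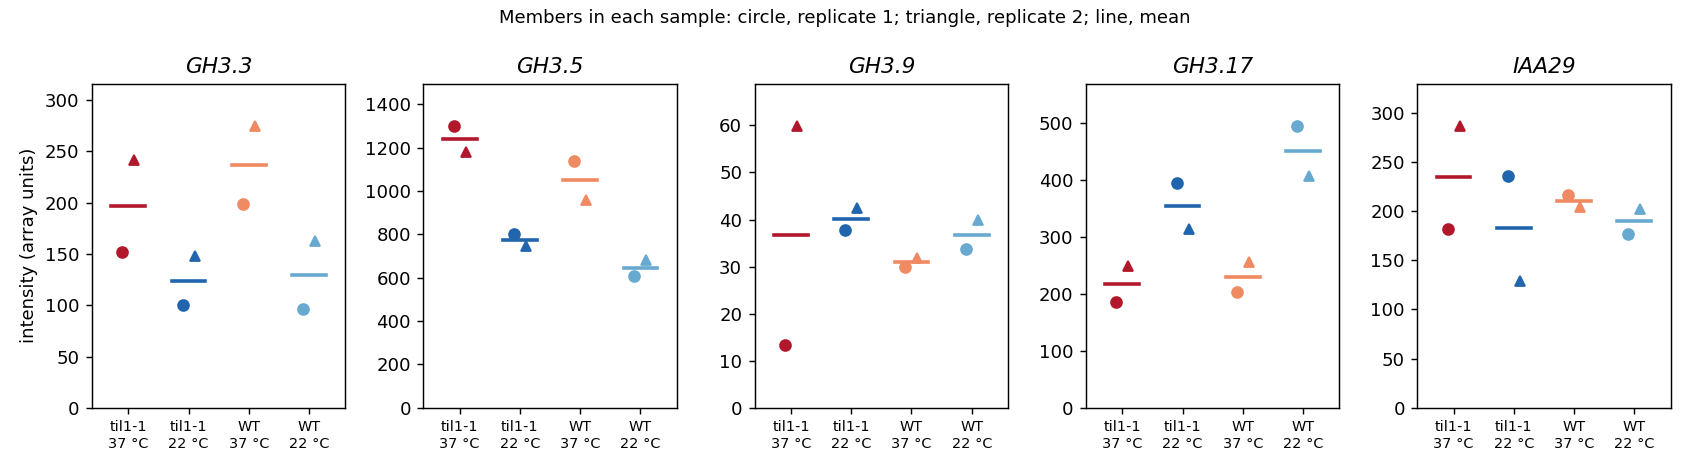
Intensity (array units, linear axis from 0) of the 5 genes in each of the 8 samples, with groups on the horizontal axis (WT, wild type), circles for replicate 1, triangles for replicate 2 and a line at the mean of the 2. GH3.5 stands higher at 37 °C than at 22 °C in all samples of both genotypes and GH3.17 lower, while the 2 samples labelled til1-1 at 37 °C lie far apart for GH3.9.

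GH3.5 encodes an enzyme that conjugates IAA and, in Arabidopsis, also salicylic acid. It read 1299.9 and 1179.9 units in the samples labelled til1-1 at 37 °C, against 803.2 and 746.2 units in those at 22 °C. In wild type it read 1137 and 960.3 units at 37 °C, against 607.3 and 679.5 units at 22 °C. The 4 groups did not overlap: til1-1 at 37 °C was highest, then wild type at 37 °C, then til1-1 at 22 °C, and wild type at 22 °C was lowest. The rise was 0.67 ± 0.11 (standard error) on the log2 scale in the samples labelled til1-1, with a 95% interval of 0.43 to 0.91, and 0.69 ± 0.11 in wild type, with an interval of 0.45 to 0.93. These are 1.59-fold and 1.61-fold on the shifted scale, with limma adjusted p-values of 0.000406 and 0.000322. Both rises kept an adjusted p under 0.05 when any 1 of the 8 samples was left out, with an adjusted p of at most 0.00634 in the samples labelled til1-1 and 0.0067 in wild type. Neither passed when the arrays were scaled to spiked controls, where GH3.5 differed by 0.22 in the samples labelled til1-1 (adjusted p 0.219) and by 0.16 in wild type (adjusted p 0.342).

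GH3.3 encodes an enzyme that conjugates IAA and is among the strongly auxin-induced members of the family. It read 151.7 and 241.7 units in the samples labelled til1-1 at 37 °C, against 99.9 and 147.8 units in those at 22 °C. In wild type it read 198.6 and 274.9 units at 37 °C, against 95.9 and 162.6 units at 22 °C. Samples at 37 °C were higher than those at 22 °C of the same genotype without overlap, although the 2 replicates of each group lay far apart, and in all 4 groups the sample numbered 2 was the higher one. The log2 difference was 0.82 ± 0.28 in wild type (1.77-fold, limma adjusted p 0.0309). In the samples labelled til1-1 it was 0.59 ± 0.28, with a 95% interval of -0.01 to 1.20, and did not pass (limma adjusted p 0.103). The call in wild type was lost without the wild-type 22 °C replicate 1 (log2 difference 0.48, limma adjusted p 0.267) or the wild-type 37 °C replicate 2 (0.60, adjusted p 0.194), and also with no filter on low values (adjusted p 0.069) or no intensity trend (adjusted p 0.0845). Without the til1-1 37 °C replicate 1, the difference in the samples labelled til1-1 was 0.90 with a limma adjusted p of 0.0371. It was 0.28 (adjusted p 0.508) without the til1-1 37 °C replicate 2 and 0.34 (adjusted p 0.459) without the til1-1 22 °C replicate 1, so its size rests on single samples.

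GH3.17 encodes an enzyme that joins IAA to glutamate. It read 185.4 and 249.5 units in the samples labelled til1-1 at 37 °C, against 394.5 and 314 units in those at 22 °C. In wild type it read 203.1 and 255.9 units at 37 °C, against 494.9 and 407.8 units at 22 °C. All 4 samples at 37 °C were below all 4 at 22 °C; the genotypes overlapped at 37 °C and did not at 22 °C, where the samples labelled til1-1 were the lower ones. GH3.17 fell by 0.67 (standard error 0.18) on the log2 scale in the samples labelled til1-1, with a 95% interval of -1.06 to -0.28 and a limma adjusted p of 0.00935. In wild type it fell by 0.93 (standard error 0.18), with an interval of -1.32 to -0.54 and a limma adjusted p of 0.00122. These falls are 1.59-fold in the samples labelled til1-1 and 1.91-fold in wild type. In the samples labelled til1-1 the call was lost without the 22 °C replicate 1 (log2 difference -0.51, limma adjusted p 0.0967) or the 37 °C replicate 1 (-0.47, adjusted p 0.0743).

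GH3.9, whose product acts in root growth, was dim. Its mean lay at the 25.2nd percentile of the probe sets other than controls, just above the filter that left out the lowest 25%. It read 13.4 and 59.9 units in the samples labelled til1-1 at 37 °C, 37.7 and 42.5 units in those at 22 °C, 30 and 31.9 units in wild type at 37 °C, and 33.7 and 39.9 units in wild type at 22 °C. The 2 samples labelled til1-1 at 37 °C were thus the lowest and the highest of the 8. The log2 difference with heat shock was -0.25 ± 0.44 in the samples labelled til1-1 (95% interval -1.20 to 0.71, limma adjusted p 0.682) and -0.17 ± 0.44 in wild type (interval -1.12 to 0.79, adjusted p 0.785). The sign in the samples labelled til1-1 turned to 0.44 without the 37 °C replicate 1 and stood at -0.93 without the 37 °C replicate 2, so no direction can be given. Whether GH3.9 was detected at all is not known, since no detection calls were used here.

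IAA29, the repressor, read 181.8 and 286.6 units in the samples labelled til1-1 at 37 °C, against 235.3 and 129.3 units in those at 22 °C. In wild type it read 216.1 and 204.6 units at 37 °C, against 176.5 and 202.4 units at 22 °C. The samples labelled til1-1 overlapped between temperatures and spread more widely than those of wild type, whose 2 groups lay close to each other without overlap. The log2 difference was 0.36 ± 0.25 in the samples labelled til1-1 (95% interval -0.19 to 0.90, limma adjusted p 0.275) and 0.14 ± 0.25 in wild type (interval -0.41 to 0.69, adjusted p 0.68). In the samples labelled til1-1 it was 0.75 with a limma adjusted p of 0.04 without the 22 °C replicate 1, and -0.04 without the 22 °C replicate 2. The intervals of IAA29 in both genotypes include 0 as well as the size of the difference measured for GH3.5. In wild type this holds only barely (upper end 0.690 against 0.688). Limma took 1 spread for all 4 groups, so the wild-type interval also reflects the samples labelled til1-1. The SD of the 2 replicates was 74.1 units at 37 °C and 75 units at 22 °C in those samples. In wild type it was 8.13 and 18.3 units. The interval thus does not show what the wild-type samples alone leave room for.

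**Figure D2:**
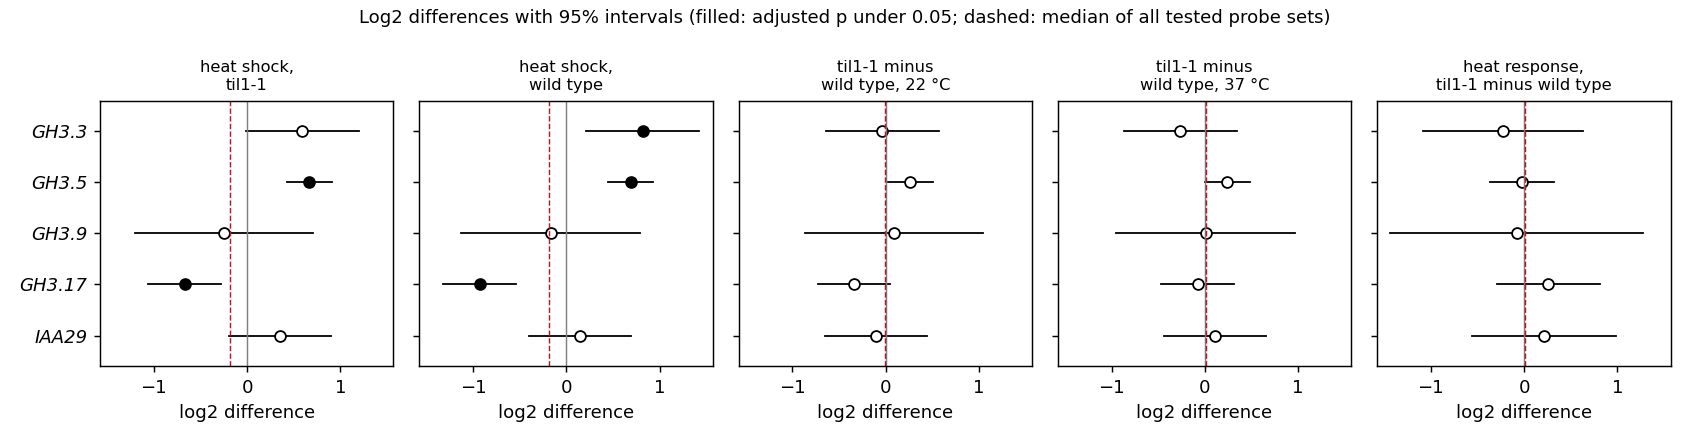
Log2 difference (horizontal axis, no unit) of each gene in the 5 comparisons, with 95% intervals from limma, filled points at an adjusted p under 0.05 and a dashed line at the median of all tested probe sets. GH3.5 and GH3.17 lie on opposite sides of 0 in both heat comparisons, and no point is filled in the 3 comparisons that involve genotype.

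These differences were set against the whole array. Over all tested probe sets the median log2 difference was -0.19 in the samples labelled til1-1 and -0.18 in wild type. GH3.5 stood above 93.5% of tested probe sets in the samples labelled til1-1 and above 94.1% in wild type, and GH3.3 above 92.4% in the samples labelled til1-1 and 95% in wild type. IAA29 stood above 86.7% of them in the samples labelled til1-1 and above 75.6% in wild type. GH3.17 stood above 19.3% of them in the samples labelled til1-1 and 10.8% in wild type, and GH3.9 close to the middle, above 45.4% in the samples labelled til1-1 and 51.2% in wild type. The samples of the 2 temperatures did not overlap for 3 of the 5 genes in the samples labelled til1-1 and for 5 of 5 in wild type, where the share over all tested probe sets was 72% in the samples labelled til1-1 and 74.2% in wild type.

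**Figure D3:**
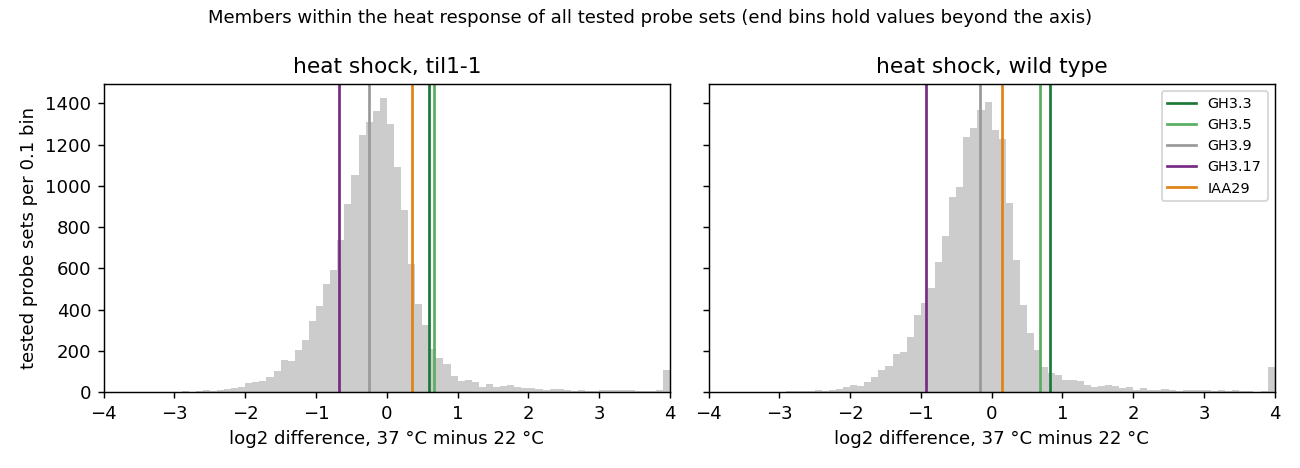
Number of tested probe sets (vertical axis) by log2 difference between 37 °C and 22 °C (horizontal axis, bins of 0.1, end bins holding values beyond the axis), with a coloured line for each of the 5 genes. GH3.3 and GH3.5 lie in the right shoulder of the distribution, GH3.17 in the left, and GH3.9 near the peak.

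Some of the members' calls moved with the scaling of the arrays. Setting medians equal or scaling to spiked controls moves each array by 1 factor, whereas quantile normalization moved probe sets by different amounts. The spiked controls were 18 Affymetrix control probe sets named Bio or Cre. Whether they follow the amount of RNA in the seedlings was not tested. As deposited, the arrays share 1 trimmed mean; the median log2 difference of all tested probe sets was 0.13 in the samples labelled til1-1 and 0.14 in wild type with array medians set equal, -0.06 in the samples labelled til1-1 and -0.05 in wild type once quantiles were equalised, and -0.64 in the samples labelled til1-1 and -0.71 in wild type when scaled to the spiked controls. Under these scalings 43.8%, 39.8% and 71% of tested probe sets passed in the samples labelled til1-1, and 44.4%, 38.6% and 76.4% in wild type. GH3.5 kept a positive difference under all 4 scalings and passed under all but the spiked controls. GH3.3 in wild type was 1.14 once medians were equalised and 1.11 with quantiles equalised, but 0.30 against the spiked controls, where it did not pass (limma adjusted p 0.234). In the samples labelled til1-1 GH3.3 passed at 0.91 with medians set equal (limma adjusted p 0.0163) and at 0.88 after quantile normalization (adjusted p 0.0216). GH3.17 was negative under all 4 scalings in both genotypes, at -0.61 to -1.46 in wild type, where it passed each time. In the samples labelled til1-1 GH3.17 did not pass with medians set equal (-0.36, limma adjusted p 0.136) or after quantile normalization (-0.41, adjusted p 0.0996). IAA29 turned negative after scaling to spiked controls in both genotypes (-0.095 in the samples labelled til1-1, -0.38 in wild type). Relative to the median of all tested probe sets as deposited, GH3.5 was higher by 0.85 in the samples labelled til1-1 and by 0.87 in wild type, and GH3.17 stood at -0.48 in the samples labelled til1-1 and -0.75 in wild type.

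**Figure D4:**
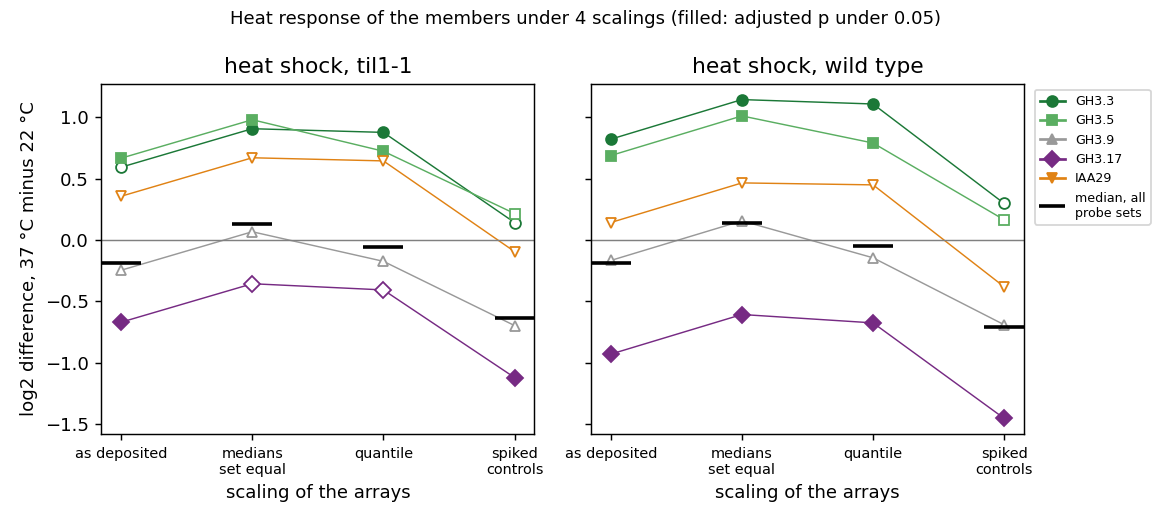
Log2 difference between 37 °C and 22 °C (vertical axis) of the 5 genes in the samples labelled til1-1 and in wild type under 4 scalings of the arrays (horizontal axis), filled at an adjusted p under 0.05, with a black bar at the median of all tested probe sets. GH3.3 and GH3.5 lie above that median and GH3.17 below it under all 4 scalings.

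The comparison of genotypes asked whether these genes differed with the til1-1 mutation. At 22 °C no member passed, where 1 probe set of 17059, or 0.00586%, did, and 656 had an unadjusted p under 0.05. GH3.5 was 0.26 ± 0.11 higher on the log2 scale in the samples labelled til1-1 without overlap (95% interval 0.02 to 0.50, limma unadjusted p 0.0343, adjusted p 1). GH3.17 differed by -0.34 ± 0.18, with the samples labelled til1-1 lower without overlap (interval -0.73 to 0.05, limma adjusted p 1). GH3.3 (-0.04, interval -0.64 to 0.57), GH3.9 (0.09, interval -0.87 to 1.05) and IAA29 (-0.10, interval -0.65 to 0.45) overlapped between genotypes. Non-overlap of the 2 genotypes at 22 °C, seen for 2 of the 5 genes, held for 38.2% of all tested probe sets.

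At 37 °C no member passed either; 2 probe sets, or 0.0117%, did, and 2279 had an unadjusted p under 0.05. GH3.5 was again higher in the samples labelled til1-1 without overlap, by 0.24 ± 0.11 (95% interval 0.0015 to 0.48, limma adjusted p 0.371), and was the 1 gene of the 5 whose genotypes did not overlap, as for 39.4% of all tested probe sets. GH3.3 differed by -0.27 (interval -0.87 to 0.34), GH3.17 by -0.08 (interval -0.47 to 0.31), GH3.9 by 0.01 (interval -0.95 to 0.97) and IAA29 by 0.11 (interval -0.43 to 0.66), all with overlap. Averaged over both temperatures, an average taken after the values were seen, the GH3.5 difference between genotypes was 0.25 ± 0.08 (interval 0.08 to 0.42), in the same direction at both temperatures and still short of the threshold (limma adjusted p 0.317), which 0.0117% of tested probe sets passed.

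The heat responses themselves did not differ detectably between genotypes for any of the 5 genes. The response in the samples labelled til1-1 minus that in wild type was -0.23 for GH3.3 (95% interval -1.08 to 0.63), -0.02 for GH3.5 (interval -0.36 to 0.32), -0.08 for GH3.9 (interval -1.43 to 1.27), 0.26 for GH3.17 (interval -0.29 to 0.81) and 0.21 for IAA29 (interval -0.56 to 0.99). Limma adjusted p-values were 0.872 to 0.989, where 1 probe set, or 0.00586% of all tested, passed and 1156 had an unadjusted p under 0.05. The call of GH3.3 in wild type and its absence in the samples labelled til1-1 are therefore not shown to differ. For GH3.5 the interval leaves room for a difference of at most 0.36 in size, whereas for GH3.9 it leaves room for more than 1 log2 unit in either direction. With both genotypes averaged, again chosen after the values were seen, the heat response was 0.71 ± 0.20 for GH3.3 (limma adjusted p 0.00836), 0.68 ± 0.08 for GH3.5 (adjusted p 1.23e-05) and -0.80 ± 0.13 for GH3.17 (adjusted p 0.000175), while GH3.9 (-0.21, adjusted p 0.592) and IAA29 (0.25, adjusted p 0.25) did not pass. Of all tested probe sets 57.4% passed in that average.

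Genes of the auxin pathway and of growth in warmth and shade were read from 9 lists of 146 genes in all. The lists were written from general knowledge with earlier results of these data known. All listed genes are counted together below, also where they are called auxin genes. Of these genes, 30 had a probe set of their own and 19 were bright enough to be tested. Auxin response factors and auxin transporters had no such probe set. Without the 5 members, 14 tested genes remained: 2 rose and 3 fell in the samples labelled til1-1, with a median log2 difference of -0.14, and 2 rose and 1 fell in wild type, with a median of -0.09, beside medians of -0.19 and -0.18 for all tested probe sets. The counts moved with the scaling: against spiked controls 9 of the 14 passed in the samples labelled til1-1, where 71% of all tested probe sets did, and 7 in wild type, where 76.4% did. The calls gained that way were all falls: IAA18 and UGT74D1 in wild type, AT5G13350 in the samples labelled til1-1, and YUC2, AT1G14130, LBD16 and HYH in both genotypes.

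In the GH3 family, 11 of 19 listed genes had a probe set of their own and 6 were tested. Besides the members these were AT5G13350 (-0.34 in the samples labelled til1-1, 0.01 in wild type) and AT5G13380 (-0.02 and -0.10), which did not pass; with them 1 GH3 gene rose and 1 fell in the samples labelled til1-1, and 2 rose and 1 fell in wild type. In the Aux/IAA family, 7 of 29 listed genes were measured and 5 tested. Among them IAA18 fell in the samples labelled til1-1 (-0.37, limma adjusted p 0.00903). With array medians equalised it was -0.058 there and no longer passed. It passed there after quantile normalization (-0.28) and scaling to spiked controls (-0.82). In wild type IAA18 stood at -0.10 (limma adjusted p 0.466), and at 0.23 with array medians equalised. IAA31 (0.51 in the samples labelled til1-1, 0.62 in wild type), IAA30 (0.08 and -0.25) and IAA34 (-0.15 and 0.26), all dim, at percentiles 25.8 to 28.4 of mean intensity, did not pass; once array medians were equalised IAA31 was 0.83 in the samples labelled til1-1 (limma adjusted p 0.0477) and 0.94 in wild type (adjusted p 0.0268) and passed in both. As deposited, the 5 tested Aux/IAA genes gave 0 rises and 1 fall in the samples labelled til1-1, where 44.3% of all tested probe sets passed, and 0 calls in wild type, where 43.7% did. Against spiked controls IAA18 passed in wild type too (-0.62, limma adjusted p 0.000478), so the family's calls and their direction depend on the scaling.

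In the list of auxin receptors, SKP2A (AT1G21410), an F-box protein that binds auxin and acts in cell division, rose in both genotypes. It read 1056 and 970 units in the samples labelled til1-1 at 37 °C against 539.5 and 540.4 units at 22 °C, and 800.4 and 652.4 units in wild type at 37 °C against 432.4 and 467.9 units at 22 °C. Its log2 difference was 0.89 in the samples labelled til1-1 (limma adjusted p 6.69e-05) and 0.67 in wild type (adjusted p 0.000582); in wild type it was 0.14 and did not pass after scaling to spiked controls. YUC2, a flavin monooxygenase of auxin synthesis and the 1 tested gene of its list, did not pass (-0.13 in the samples labelled til1-1, -0.52 in wild type, the second at a limma adjusted p of 0.053); against spiked controls it was -0.58 (adjusted p 0.0248) in the samples labelled til1-1 and -1.04 (adjusted p 9.68e-05) in wild type.

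Among genes listed for other routes of auxin inactivation, AT1G14120 rose in both genotypes, by 0.70 in the samples labelled til1-1 (limma adjusted p 0.00588) and 0.55 in wild type (adjusted p 0.0208), and passed in neither after scaling to spiked controls. Its neighbour in the genome, AT1G14130, did not pass (-0.30 in the samples labelled til1-1, -0.25 in wild type). UGT74D1, a glucosyltransferase that acts on auxin in Arabidopsis, fell in the samples labelled til1-1 (-0.49, limma adjusted p 0.00507) and stood at -0.09 in wild type. With medians equalised these values were -0.17, which did not pass, and 0.23. The fall in the samples labelled til1-1 passed after quantile normalization (-0.37) and scaling to spiked controls (-0.94). As deposited, the difference between the heat responses, -0.40, did not pass (limma adjusted p 0.699). Of the early response genes, the homeobox gene HAT2, which auxin induces, fell by 0.59 in the samples labelled til1-1 (limma adjusted p 0.0009). In wild type it fell by 0.53 (limma adjusted p 0.00179). The fall passed in neither once array medians were equalised. It passed in both after quantile normalization (-0.39 in the samples labelled til1-1, -0.33 in wild type) and scaling to spiked controls (-1.04 and -1.06). LBD16, a factor of lateral root formation (-0.09 in the samples labelled til1-1, -0.17 in wild type), did not pass. HYH, a bZIP factor of light signalling and the 1 tested gene of the list for warmth and shade (-0.22 and -0.07), did not pass. None of the 14 genes passed as deposited in any comparison that involved genotype. Against spiked controls 1 of them passed between genotypes at 37 °C.

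**Figure D5:**
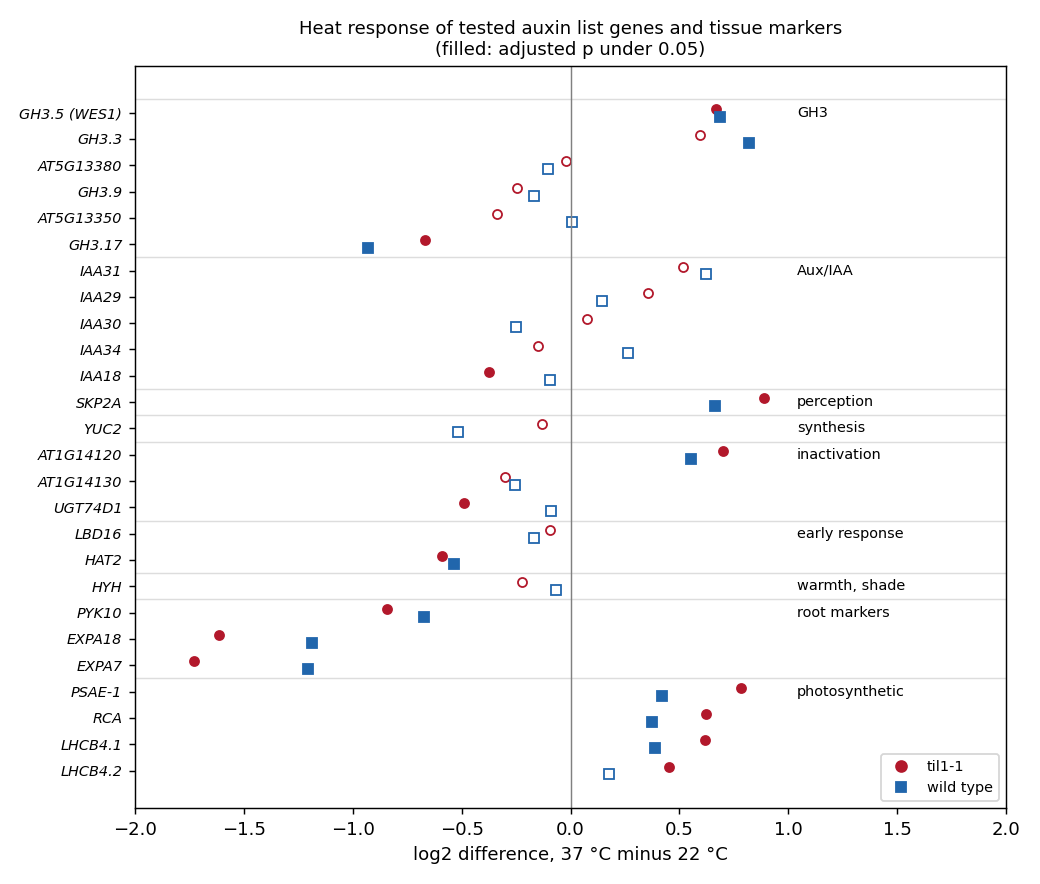
Log2 difference between 37 °C and 22 °C (horizontal axis) of each tested gene of the auxin lists and of the tissue markers, with circles for the samples labelled til1-1, squares for wild type and filled symbols at an adjusted p under 0.05. GH3.3 and GH3.5 lie right of 0 with SKP2A and AT1G14120, and GH3.17 left of 0 with HAT2 and the root markers.

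Tissue markers moved with heat shock beside these genes. The 3 measured root markers EXPA7, EXPA18 and PYK10 fell in both genotypes, with a median log2 difference of -1.61 in the samples labelled til1-1 and -1.19 in wild type, under all 4 scalings. Their summed intensity was 8980 to 9153 units in the samples labelled til1-1 at 37 °C against 16423 to 16719 units at 22 °C, and 10643 to 11601 units in wild type at 37 °C against 17143 to 18836 units at 22 °C. Nearly all of each sum was PYK10, which averaged 8908 units in the samples labelled til1-1 at 37 °C. PYK10 fell by less than the other root markers (-0.84 in the samples labelled til1-1, -0.67 in wild type). The 4 markers of photosynthetic tissue summed to 92439 to 95645 units in the samples labelled til1-1 at 37 °C against 58384 to 62487 units at 22 °C, and to 80442 to 83807 units in wild type at 37 °C against 61281 to 66842 units at 22 °C, and their log2 differences turned negative after quantile normalization and, in wild type, also when scaled to spiked controls. Other measures on the arrays moved as well. The 25S ribosomal RNA control read 1828.4 to 3966.8 units in samples at 37 °C, against 269.8 to 410.4 units in those at 22 °C, and the ratio of 3' to 5' actin signal lay between 1.86 and 2.16 in samples at 37 °C, against 1.56 and 1.75 as the limits in samples at 22 °C. In whole seedlings, fewer cells of a type and less RNA per cell cannot be told apart, and the part of these markers and array measures in the fall of GH3.17 or the rises of GH3.3 and GH3.5 was not tested.

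The genes whose profiles lay nearest to each member were named by the highest Pearson correlation of log2 values over the 8 samples among 9399 other tested probe sets with 1 gene. The 8 samples share 2 temperatures and 2 genotypes, and the correlations are given as a description. Nearest to GH3.5 were AKINBETA1 (AT5G21170, r = 0.988), a regulatory subunit of the SnRK1 kinase, and AT1G51200 (r = 0.988). AKINBETA1 averaged 3577 units in the samples labelled til1-1 at 37 °C against 2559 units at 22 °C, and 3079 units in wild type at 37 °C against 2105 units at 22 °C, the same order of groups as GH3.5. Nearest to GH3.17 were AT5G17160 (r = 0.990) and AT3G62110 (r = 0.989), of which the second averaged 450.4 units in the samples labelled til1-1 at 37 °C against 709.7 units at 22 °C, and 472.6 units in wild type at 37 °C against 807.5 units at 22 °C. Such likeness was common for these 2 genes, with 553 probe sets at a correlation of 0.9 or above to GH3.5 and 567 to GH3.17. It was rare for the others, with 38 for GH3.3 (nearest AT5G66530 and AT3G62400, r = 0.970 and 0.958), 30 for GH3.9 (AT5G59050 and AT5G28590, r = 0.976 and 0.965) and 4 for IAA29 (AT3G46360 and AT5G54520, r = 0.955 and 0.937).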

How the data were processed

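The starting material was total RNA of 8 seedling samples, the label was biotin, and each sample had 1 Affymetrix array. The authors made the deposited linear intensity values with GCOS, as the submitters' processing notes name it, version and summary algorithm unstated. The mean after trimming 2% at each end was the same on every array (500.04 to 500.05), so the arrays had been scaled to it. Gene names came from GEO's platform annotation, and current symbols from a TAIR10.1 table through the gene ID (13436 of 13513 1-gene probe sets matched).

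Control probe sets (64) were removed, then the dimmest 25% of the rest by mean log2 value (below the equivalent of 33.98 units), and log2(intensity + 16) was tested with limma 3.58.1 in R 4.3.3: 1 mean per group, all 8 samples, 4 residual degrees of freedom, intensity trend, Benjamini-Hochberg adjustment over 17059 probe sets. SDs measure the spread between the 2 pools of a group. Limma standard errors rest on 1 spread per probe set, shared by all 4 groups and adjusted towards the intensity trend. They are therefore the same in both genotypes, also where 1 genotype varied more. An array has no read depth, and the number of arrays limits the precision. The script was tested on simulated data. The members, lists and tests were chosen with earlier results of these data known. Named genes were the 5 members, all tested list genes, some list genes too dim for the test, and for each member the 2 most correlated 1-gene probe sets. Alternatives were 3 other scalings, 2 other constants, 2 other filters, no trend, a replicate block, only the groups compared, and each sample left out.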

Additional observations from a re-analysis of the deposited data

How the results depend on the processing

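Of 430 refits of the members' log2 differences in the 5 comparisons, 383 kept their direction and their side of the threshold, 11 lost a call, 5 gained one and 31 changed sign, the last all for values that had not passed. None of the 271 fits of the members in the 3 comparisons that involve genotype passed (lowest limma adjusted p 0.166). That set leaves out the genotype difference averaged over both temperatures. There GH3.5 came closest to the threshold, without passing (lowest limma adjusted p with all samples kept 0.0819). The causes of the changes between refits were not tested. Scaling to spiked controls left 1 member called in the samples labelled til1-1 and 1 in wild type (GH3.17), where 2 and 3 were called as deposited, while the share of all probe sets called was 71% and 76.4%, against 44.3% and 43.7% as deposited; of the other auxin genes it called 9 in the samples labelled til1-1, 7 in wild type and 1 between genotypes at 37 °C, where 5, 3 and 0 were called as deposited. With array medians set equal, 3 other auxin genes were called in the samples labelled til1-1. Leaving out 1 sample gave 3 to 5 such calls there, the fewest without the til1-1 22 °C replicate 1, and 2 to 4 in wild type; with 1 sample left out, 2 members were called in the samples labelled til1-1, though not always the same ones (without the 22 °C replicate 1, IAA29 and not GH3.17; without the 37 °C replicate 1, GH3.3 and not GH3.17), and 2 to 3 in wild type. Signs turned as follows. With medians set equal, GH3.9 was 0.067 (heat, til1-1), 0.16 (heat, wild type), 0.11 (mean heat response) and -0.0038 (genotype at 37 °C), and the mean genotype difference of IAA29 was -0.0027. With a constant of 1, GH3.9 was -0.11 between genotypes at 37 °C. After scaling to spiked controls, IAA29 was -0.095 (heat, til1-1), -0.38 (heat, wild type) and -0.24 (mean heat response), GH3.3 0.061 (genotype at 22 °C), GH3.17 0.093 (genotype at 37 °C) and GH3.5 0.051 (difference of responses). With 1 sample left out, heat shock in the samples labelled til1-1 ranged from -0.93 to 0.44 for GH3.9 and from -0.039 to 0.75 for IAA29, and the mean heat response of GH3.9 from -0.55 to 0.14. The genotype difference at 22 °C ranged from -0.37 to 0.30 for GH3.3 and -0.50 to 0.29 for IAA29; at 37 °C from -0.58 to 0.045 for GH3.3, -0.68 to 0.69 for GH3.9, -0.28 to 0.12 for GH3.17 and -0.19 to 0.42 for IAA29; and over both from -0.32 to 0.017 for GH3.3, -0.29 to 0.39 for GH3.9 and -0.19 to 0.20 for IAA29. The difference of responses ranged from -0.57 to 0.11 for GH3.3, -0.14 to 0.10 for GH3.5, -0.76 to 0.60 for GH3.9 and -0.18 to 0.61 for IAA29. A group left with 1 sample is taken to vary like the others. With the lowest 50% of probe sets left out, GH3.3 and GH3.9 were not tested, nor GH3.9 with a constant of 64.

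The replicate numbers of the titles are not shown to pair the samples: over 17059 probe sets, the differences between replicates 2 and 1 correlated between groups at -0.04 to 0.14. With the replicate number as a block, 3 members were called in the samples labelled til1-1, the added one being GH3.3 (0.59, limma adjusted p 0.0115), and 3 in wild type.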

Other observations

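Several other GH3 genes had probe sets of their own that were too dim for the test: 5 of the 11 measured, among them GH3.1, another auxin-induced IAA synthetase. GH3.1 read 36.7 and 34.2 units in the samples labelled til1-1 at 37 °C, 28.7 and 43.8 units in those at 22 °C, 3.7 and 3.6 units in wild type at 37 °C, and 31.1 and 31.5 units in wild type at 22 °C. The wild-type samples at 37 °C thus stood apart from the other 6. With no filter on low values, its log2 difference with heat shock was -0.01 in the samples labelled til1-1 and -1.27 in wild type (limma adjusted p 0.989 and 0.00773). The difference between these responses, 1.26, did not pass (limma adjusted p 0.683). AT5G51470, from the same family list, was also lowest in the wild-type samples at 37 °C, at 2.9 and 2.1 units, and read 40.7 and 4.8 units in the samples labelled til1-1 at 37 °C, 30.3 and 41 units in those at 22 °C, and 40.4 and 28.2 units in wild type at 22 °C. Such values lie near the lower end of the scale, no detection calls were used here, and these 2 genes were picked after their values were seen. With no filter on low values AT5G51470 passed in wild type (-1.43, limma adjusted p 0.0333). So did YUC6 of the auxin synthesis list (-1.39, limma adjusted p 0.0305), which read 2.4 and 8.6 units in wild type at 37 °C. In the samples labelled til1-1 YUC6 was -1.03 (limma adjusted p 0.0922). The other dim auxin list genes passed in neither heat comparison.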
